A study of Sus scrofa with 5 samples.

Results

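Cholesterol synthesis in pig backfat was followed through 7 enzymes of the pathway, HMGCS1, IDI1, FDPS, FDFT1, SQLE, LSS and DHCR7, which were taken by name. A gene counted as measured where a probe set carried its symbol and no other. This held for 4 of the 7 genes, HMGCS1, FDPS, FDFT1 and SQLE, with 1 probe set each, that is 4 of the 23999 probe sets tested and 4 of 6765 genes. IDI1, LSS and DHCR7 had no such probe set and were not measured.

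The RNA came from the backfat of 5 females of a backcross of Iberian × Landrace boars to Landrace sows, each on its own Affymetrix porcine array. The H group was BC4, BC5 and BC6, with more PUFA in the muscle, and the L group was BC2 and BC3, with more SFA and MUFA in the muscle. No treatment separates the groups: the pigs were chosen as extremes of a principal component of carcass and intramuscular FA traits. They ate the same cereal-based feed freely and were slaughtered at a similar age. The study states that the animals were fasting at slaughter. The comparison asks whether backfat of these extremes differed in the expression of the enzymes.

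Cells make cholesterol from acetyl-CoA. HMGCS1 condenses acetyl-CoA units to HMG-CoA, from which mevalonate is made, and IDI1 interconverts the isoprene units that FDPS joins to farnesyl diphosphate. FDFT1 joins farnesyl diphosphate to squalene, SQLE adds the epoxide, LSS closes the ring to lanosterol, and DHCR7 completes the last reduction to cholesterol. In mammals these genes are targets of the transcription factor SREBF2, which SCAP escorts to its activation when sterols are low and which INSIG proteins hold back when they are high. Adipose tissue is a large store of cholesterol and takes up much of it from lipoproteins.

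The array values are on a log2 scale, so that a step of 1 is a doubling, and run from a floor of 2.17 to 16.1, with array medians of 4.21 to 4.29. A submitters' note names liver for the RNA, against the backfat of the tissue label. FABP4, an adipocyte fatty acid carrier, lay between 15.36 and 15.49 on all arrays, and 7 of 8 hepatocyte markers stayed at or below 4.69, with APOA1, at 11.29 to 12.57, as the exception. BC5 of the H group stood apart. It had the highest values of the skeletal muscle genes MYH2 (7.84, against 2.17 to 4.75 on the other arrays) and CKM (6.95, against 2.43 to 5.04), and the lowest of the adipokines ADIPOQ (9.09, against 10.52 to 12.20) and LEP (4.41, against 8.27 to 10.48). Other adipocyte markers were not lowest in BC5, which had the highest values of FABP4 and of the lipase LIPE (12.40, against 12.12 to 12.35). PPARG was at 10.50 in BC5, against 10.28 in BC4 and 10.60 to 10.79 on the other arrays. Over the lists, the mean of the 3 measured of 6 skeletal muscle markers was 2.28 to 5.93 in H pigs and 2.46 to 4.05 in L pigs, and that of the 5 measured of 7 adipocyte markers was 10.38 to 11.93 in H pigs and 11.42 to 11.86 in L pigs. Their part in the results was not tested, and results are also given without BC5. As these are bulk samples, fewer cells of a type and less RNA per cell cannot be told apart.

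The 4 genes differed between the pigs by 1.33-fold to 2.98-fold, and no gene passed the test between the groups. HMGCS1, which commits acetyl-CoA units to the pathway, had log2 values of 8.36 in BC4, 7.99 in BC5 and 9.09 in BC6 of the H group, and of 8.76 in BC2 and 8.78 in BC3 of the L group. The L pigs were 0.02 apart and lay inside the range of the H pigs, which was 1.10. The means were 8.48 ± 0.563 in H pigs (SD, n = 3) and 8.77 ± 0.0135 in L pigs (SD, n = 2). The difference of H minus L was -0.29 (standard error 0.397, 95% interval -1.48 to 0.90, adjusted p = 1 from limma). Without BC5, it was -0.05, and without BC6 it was -0.60. The order of the pigs, with BC6 first and then BC3, BC2, BC4 and BC5, was also that of CD163 and C1QA, the 2 measured of 6 listed macrophage markers, on their brightest probe sets. A second CD163 probe set placed BC4 above BC2. In HMGCS1 the step from BC3 to BC2 was only 0.02, and the share of all probe sets with this order was not counted. The mean log2 value of the 2 markers was 5.03 to 7.48 in H pigs and 5.91 to 6.51 in L pigs, with neither at the floor. The part of these markers in the HMGCS1 values was not tested.

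FDPS, which makes farnesyl diphosphate for sterols and for prenylated proteins, had log2 values of 8.10 in BC4, 8.15 in BC5 and 8.43 in BC6, against 9.68 in BC2 and 8.39 in BC3. A single L pig, BC2, was high, and the other L pig lay within the range of the H pigs. The means were 8.23 ± 0.176 in H pigs (SD, n = 3) and 9.03 ± 0.907 in L pigs (SD, n = 2). The difference was -0.81, a 1.75-fold lower value in H (standard error 0.469, 95% interval -2.22 to 0.60, adjusted p = 1 from limma). This was the largest difference of the 4 genes, and 4.35% of the 12648 probe sets with distinct values above the floor on all arrays differed by at least as much. It was -0.17 without BC2, -1.45 without BC3 and -0.77 without BC5.

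FDFT1, the squalene synthase, was the steadiest of the 4 genes and the only 1 whose groups did not overlap. Its log2 values were 10.06 in BC4, 9.84 in BC5 and 9.93 in BC6, against 10.21 in BC2 and 10.25 in BC3. All 3 H pigs lay below both L pigs, with 0.41 between the highest and the lowest pig. Of the 12648 probe sets, 79.5% varied over at least as wide a range. The means were 9.94 ± 0.107 in H pigs (SD, n = 3) and 10.23 ± 0.033 in L pigs (SD, n = 2). The difference was -0.29, a 1.22-fold lower value in H, with a standard error of 0.0773 and a 95% interval of -0.52 to -0.05. The unadjusted p was 0.0281 and the adjusted p was 1 from limma. Leaving out each pig in turn moved the difference between -0.34 and -0.24, and it was -0.24 without BC5. The unadjusted p from limma was 0.0102 without BC4, 0.0498 without BC5 and 0.091 without BC6. The difference was -0.31 without BC2 and -0.26 without BC3. No p is given for these 2 fits, as each holds only 1 L pig.

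SQLE, the squalene epoxidase and a rate-limiting enzyme of the later part of the pathway, had log2 values of 5.90 in BC4, 6.20 in BC5 and 7.08 in BC6, against 5.96 in BC2 and 7.44 in BC3. Each group held high and low pigs, with BC3 of L and BC6 of H above the other 3. The means were 6.40 ± 0.613 in H pigs (SD, n = 3) and 6.70 ± 1.04 in L pigs (SD, n = 2). The difference came to -0.31 (standard error 0.677, 95% interval -2.34 to 1.72, adjusted p = 1 from limma). It turned to 0.43 without BC3, and was -1.04 without BC2, -0.65 without BC6, -0.06 without BC4 and -0.21 without BC5.

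**Figure D1:**
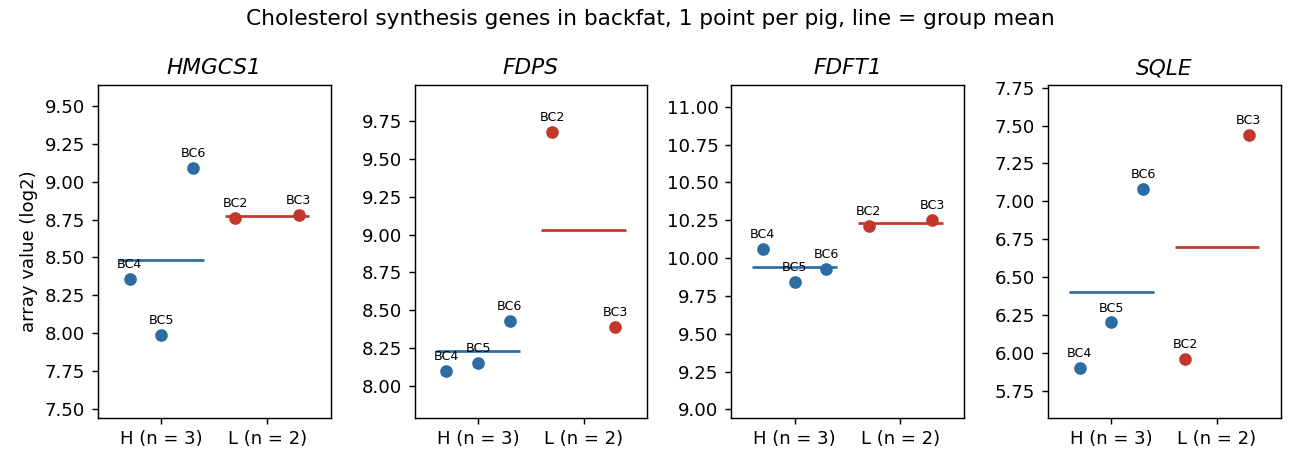
Array values (log2, y axis) of HMGCS1, FDPS, FDFT1 and SQLE in backfat, 1 labelled point per pig, H pigs in blue and L pigs in red, with a line at each group mean and y axes of equal span. FDFT1 has both L pigs above all H pigs, FDPS is high in BC2 alone at 9.68, and SQLE is split within both groups.

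A probe set passed at a p of at most 0.01, an adjusted p of at most 0.1 and a fold difference of at least 1.2, the limits that the study set for its sequencing data. None of the 4 genes passed in limma, and none of the 23999 probe sets did (0.0%). At an unadjusted p under 0.05 there was 1 of the 4 genes, FDFT1, lower in H, where 3.18% of all probe sets reached that limit and 1.58% did so lower in H. The mean of H lay below that of L for 4 of 4 genes, and for 46.7% of the 12648 probe sets. The groups did not overlap, with H lower, for 1 of 4 genes and for 9.38% of those probe sets. The median difference of the 4 genes was -0.30, against 0.02 over the 12648 probe sets, and was -0.22 without BC5. Without BC3, the mean of H lay below that of L for 3 of the 4 genes. With 3 arrays against 2, the 95% intervals of HMGCS1, FDPS and SQLE span both directions, so equal expression is not shown.

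**Figure D2:**
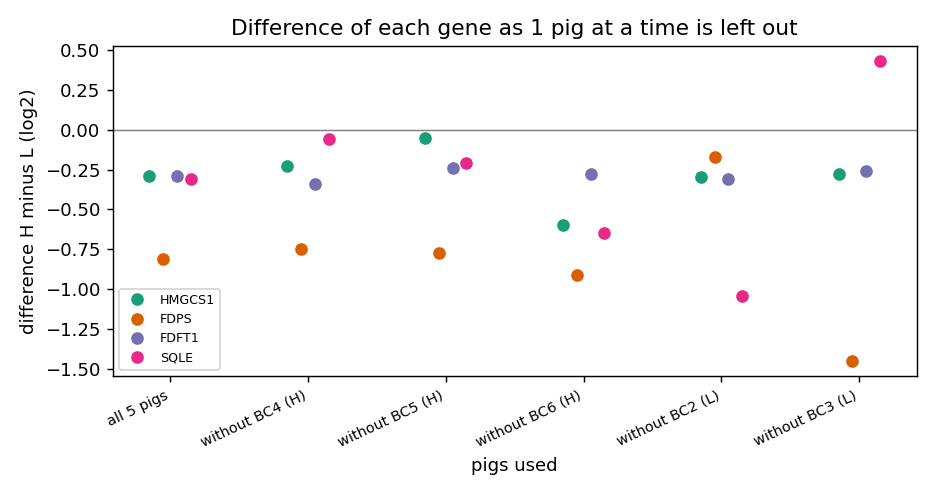
Difference of H minus L (log2, y axis) of the 4 genes with all 5 pigs and with each pig left out in turn (x axis). FDFT1 stays between -0.34 and -0.24, FDPS runs from -1.45 without BC3 to -0.17 without BC2, and SQLE turns to 0.43 without BC3.

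Between the pigs, the 4 genes did not share a single order. As deviations from each gene's own mean, BC5 was at -0.61 for HMGCS1, -0.40 for FDPS, -0.21 for FDFT1 and -0.32 for SQLE, below the mean in all 4. BC4 was at -0.24 for HMGCS1, -0.45 for FDPS and -0.61 for SQLE, and at the mean for FDFT1. BC6 of the same group was above the mean for HMGCS1 (0.50) and SQLE (0.57) and below it for FDPS (-0.12) and FDFT1 (-0.13). Among L pigs, BC2 was at 1.13 for FDPS and at -0.55 for SQLE, while BC3 was at -0.16 for FDPS and at 0.92 for SQLE. The 2 L pigs thus went opposite ways for FDPS and SQLE, enzymes separated only by FDFT1 in the pathway. For each pair of genes, 6 or 7 of the 10 pairs of pigs were ordered alike. With 5 pigs, no correlation is given. Of the 6 pairings of an H pig with an L pig, BC4 was below BC2 and below BC3 for all 4 genes, and BC5 was below BC3 for all 4. BC6 was above each of BC2 and BC3 for 2 of the 4 genes. Markers of other cells also varied between the pigs. The 2 fibroblast markers above the floor, DCN and LUM, had median deviations of -0.36 in BC4, -0.59 in BC5 and 0.71 in BC6, against 0.40 in BC2 and -0.16 in BC3, and COL3A1 was at the floor. The mean of H was higher for all 4 measured of 5 listed smooth muscle markers, with a mean level of 7.42 to 8.79 in H pigs and 6.66 to 8.17 in L pigs. Their median deviations were 0.77 in BC4, -0.41 in BC5 and -0.07 in BC6, against -1.11 in BC2 and 0.31 in BC3. The mean of H was also higher for 5 of 6 endothelial markers, with a mean level of 9.10 to 9.88 in H pigs and 8.75 to 9.43 in L pigs. Over the 12648 probe sets, the mean of H lay below that of L in 46.7%. The 3 measured lymphocyte markers were at the floor. The part of these cells in the results was not tested.

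Further steps of cholesterol synthesis could be set beside these genes. Of 14 other enzymes listed, 7 had a probe set with their symbol alone. None of the 7 passed in limma, in either direction, and none had an unadjusted p under 0.05. The mean of H lay below that of L for 6 of 7, with a median difference of -0.50, and the exception was TM7SF2, near the floor. The median was -0.26 without BC5, -0.23 without BC2 (5 of 7 lower) and -0.80 without BC3. CYP51A1, the lanosterol demethylase, annotated as CYP51, had values of 9.90 in BC4, 9.33 in BC5 and 10.55 in BC6, against 10.77 in BC2 and 10.61 in BC3. All H pigs lay below both L pigs for this gene, although BC6 was only just below BC3. The groups did not overlap, with H lower, for 1 of the 7 enzymes and for 9.38% of the 12648 probe sets. For CYP51A1, H minus L came to -0.76, with a standard error of 0.434 and an adjusted p of 1 in limma, and to -0.46 without BC5.

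MSMO1, which removes methyl groups from the sterol ring, had values of 9.29 in BC4, 8.92 in BC5 and 9.90 in BC6, against 10.03 in BC2 and 9.70 in BC3, a difference of -0.50, or of -0.27 without BC5. ACAT2, the cytosolic thiolase that precedes HMGCS1, had 8.92 in BC4, 8.02 in BC5 and 9.05 in BC6, against 9.67 in BC2 and 8.81 in BC3. This was a difference of -0.58, or of -0.26 without BC5, -0.15 without BC2 and -1.01 without BC3. Its second probe set gave the pigs in the same order. NSDHL, a sterol dehydrogenase, was at 5.67 in BC4, 5.09 in BC5 and 5.96 in BC6, against 5.93 in BC2 and 5.91 in BC3, a difference of -0.35, or of -0.10 without BC5. In each of these genes the groups overlapped, and BC5 was the lowest pig. SC5D, a sterol desaturase, differed by -0.47, but by -0.06 without BC5 and by 0.25 without BC2. HSD17B7, a sterol reductase, differed by -0.52, or by -0.09 without BC4, -0.23 without BC2 and -0.81 without BC5. TM7SF2 stayed between 2.39 and 2.48, near the floor.

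Across the 4 genes and these 7, the lowest pig was BC4 or BC5 in 11 of 11, namely BC5 in 7 and BC4 in 4, a pattern noticed after the values were seen and which counts TM7SF2, near the floor. Over the 12648 probe sets, the lowest pig was BC4 or BC5 in 40.4%. The highest pig was BC2 in 6 of the 11, BC6 in 3 and BC3 in 2. HMGCS1 and NSDHL shared BC6 as the highest pig and BC5 as the lowest.

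**Figure D3:**
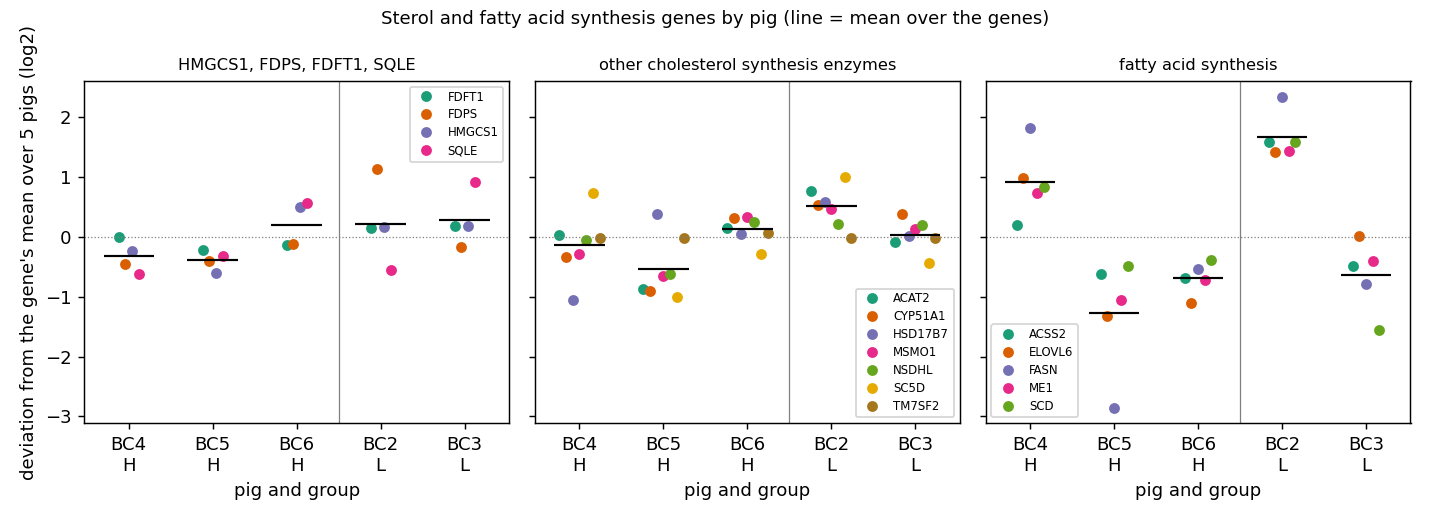
Deviation of each gene from its own mean over the 5 pigs (log2, y axis) by pig and group (x axis), with points for genes and a black line for the mean over the genes, for the 4 genes, 7 other cholesterol synthesis enzymes and 5 fatty acid synthesis genes. BC5 lies below 0 for all 4 genes at left, while BC4 lies at or below 0 at left and above 0 for every fatty acid synthesis gene at right.

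The sensors and carriers of sterols came next. Of 15 genes of sterol sensing and uptake, 9 had a probe set, and none passed in limma or had an unadjusted p under 0.05. The mean of H lay below that of L for 6 of 9, against 46.7% of the 12648 probe sets. The count was 7 of 9 with each array centred on its median and 5 of 9 with array weights. It was 4 of 9 without BC4 or without BC6, and 5 of 9 without BC2, BC3 or BC5. The differences of the 9 genes ran from -0.58 to 0.24, with a median of -0.02. SREBF2, the main activator of these enzymes, had a probe set at 4.78 in BC4, 4.94 in BC5 and 5.08 in BC6, against 4.94 in BC2 and 4.96 in BC3, and its 3 other probe sets were at or next to the floor. INSIG1, which keeps SCAP in the endoplasmic reticulum and is itself a target of the pathway, was at 10.42 in BC4, 10.02 in BC5 and 10.66 in BC6, against 10.83 in BC2 and 10.07 in BC3. Its difference was -0.08 (standard error 0.353, 95% interval -1.14 to 0.98), and 0.30 without BC2 and 0.09 without BC5. NPC1, which exports cholesterol from lysosomes, was at 9.85 in BC4, 8.93 in BC5 and 10.31 in BC6, against 10.02 in BC2 and 10.54 in BC3, with BC5 lowest as for HMGCS1. For NPC1, H minus L came to -0.58, with a standard error of 0.529 and an adjusted p of 1 in limma, and to -0.20 without BC5. SCAP differed by -0.08, or by 0.13 without BC2 and -0.21 without BC5, and SREBF1 was at or near the floor on all arrays.

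Of 9 genes of cholesterol efflux and esterification, 6 had a probe set and 5 of the 6 means were higher in H, with a median difference of 0.23. The 5 include NCEH1, at or near the floor on all arrays, and without the dimmest 40% of probe sets 4 of 5 were higher, with a median of 0.32. With all 6 genes, the median was -0.12 without BC4 (3 of 6 higher), 0.06 without BC2 (4 of 6) and 0.15 without BC3 (3 of 6). The median was 0.33 without BC5 (5 of 6) and 0.39 without BC6 (4 of 6). NR1H3, the oxysterol receptor LXRα, was the only 1 of them with an unadjusted p under 0.05, at 0.0157 (adjusted p = 1 from limma), where 1.6% of all probe sets were higher in H at that limit. ABCA1, the cholesterol exporter that LXRα induces, was at 9.37 in BC4, 8.44 in BC5 and 8.43 in BC6, against 8.22 in BC2 and 8.64 in BC3, so that the groups overlapped. LIPA, the lysosomal lipase that frees cholesterol from its esters, differed by -0.25, a difference that came to 0.00 without BC5. Of 9 genes of the branches that use isoprenoids for other products, 4 had a probe set, and their differences ran from -0.15 for the farnesyltransferase subunit FNTA to 0.18 for its partner FNTB, which was at -0.14 without BC2. None of these genes passed in limma.

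**Figure D4:**
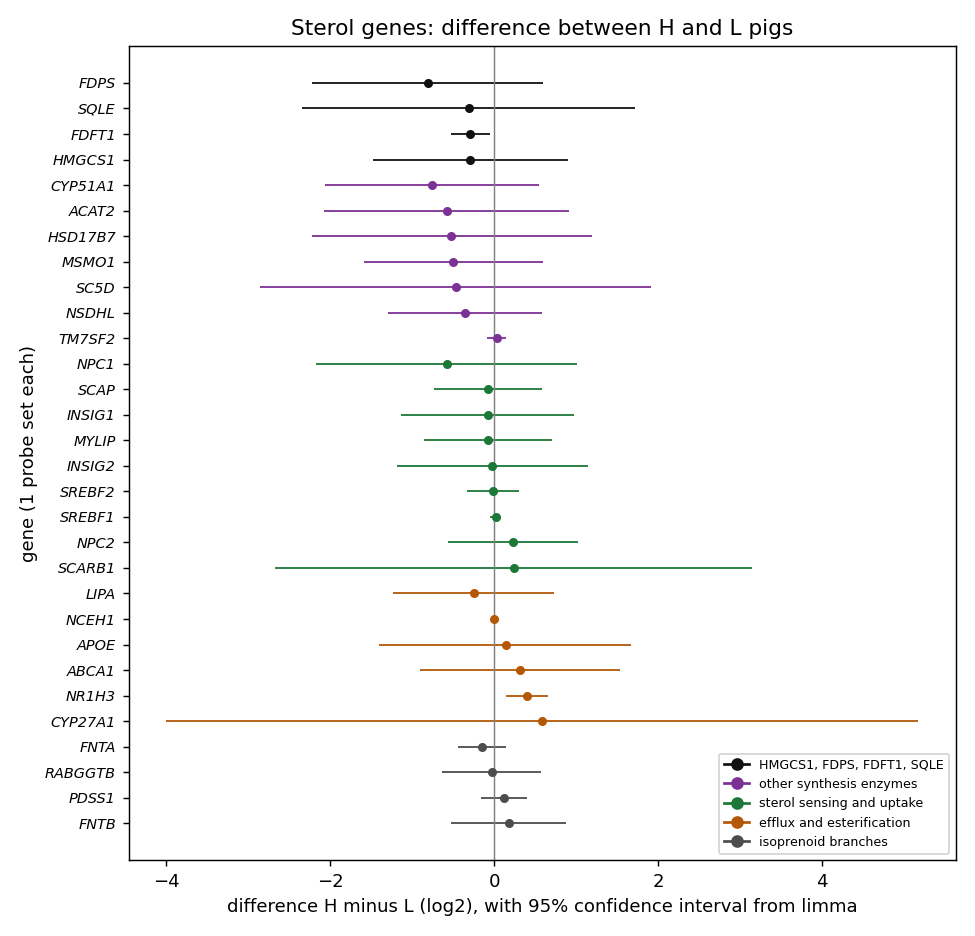
Difference of H minus L (log2, x axis) with its 95% interval from limma for 1 probe set per gene (y axis), grouped by colour into the 4 genes, other synthesis enzymes, sensing and uptake, efflux and esterification, and isoprenoid branches. The intervals of FDFT1 and NR1H3 leave out 0, neither passed after adjustment, and the short intervals of TM7SF2, SREBF1 and NCEH1 belong to values near the floor.

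Genes listed for fatty acid synthesis, a pathway that also starts from cytosolic acetyl-CoA, ranked the pigs in another way. FASN, ELOVL6, SCD, ACSS2 and ME1 all had BC2 as the highest pig and BC4 as the next. Among the 4 genes BC4 was instead the lowest pig for FDPS and SQLE, the next lowest for HMGCS1 and the third for FDFT1. The median deviation of BC4 was -0.34 in the 4 genes, -0.04 in the 7 other cholesterol enzymes and 0.83 in the fatty acid genes. The 7 enzymes shared extremes with the fatty acid genes. BC2 was highest in 5 of 7 and in 5 of 5, against 21.4% of the 12648 probe sets. BC5 was lowest in 5 of 7 and in 3 of 5, against 26.3%. FASN, the fatty acid synthase, had 13.27 in BC4, 8.59 in BC5 and 10.90 in BC6, against 13.79 in BC2 and 10.66 in BC3. Its range over the pigs was 5.20, where that of FDPS was 1.57 and that of SQLE 1.53. SC5D was the cholesterol enzyme that ranked the pigs as FASN did. The difference between the lists was not tested.

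Among 5708 other genes with no array at the floor, those whose deviations by pig were closest to the mean profile of the 4 genes were LOC100622859, SRPRA, LOC102164640, AGA, FANCD2 and RBM28. Closeness was the mean absolute difference of the deviations over the 5 pigs, and it ran from 0.040 for LOC100622859 to 0.078 for RBM28. SRPRA, a subunit of the receptor of the signal recognition particle, was at 9.19 in BC4, 9.22 in BC5 and 9.67 in BC6, against 9.68 in both BC2 and BC3. AGA, a lysosomal hydrolase, was at 9.67 in BC4, 9.45 in BC5 and 10.16 in BC6, against 10.08 in BC2 and 10.05 in BC3. In both genes BC4 and BC5 were low and BC6 lay close to the L pigs. FANCD2 lay between 2.27 and 2.93, near the floor. No gene of sterol metabolism from the lists was among these 6.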

How the data were processed

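The authors hybridized 1 array per pig and deposited log2 values per probe set, adjusted for background and normalized between arrays. The methods name GCRMA and the submitters' notes name RMA, so the procedure is not settled. The labels give the pigs' names, and the study assigns these names to H and L. After 124 control probe sets were left out, 23999 were tested as H minus L, without covariates, with limma 3.58.1 in R 4.3.3 and Benjamini-Hochberg adjustment over all of them. Symbols came from a platform annotation with 1 symbol for 10069 probe sets, 9961 of which had an Entrez ID in RefSeq for Sscrofa11.1, with no symbol changed. For listed genes, the probe set with the highest mean was used. A value within 0.001 of the lowest value was counted as at the floor.

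The 7 genes and the lists were chosen with earlier results of these data known. Named genes are the 7, up to 4 of each sterol list with the smallest p, SREBF2, INSIG1 and PMVK, and the 6 closest profiles. PMVK had no probe set with its symbol alone and was not measured. Some items that the rule names are not reported here. Other genes were named after their values were seen, among them SC5D, HSD17B7 and TM7SF2. Not every gene that the rule allows is printed. Alternatives were other scalings, variance models, array weights, a filter on dim probe sets and leaving out each pig. Pig BC1 of the L group and the sequencing counts were not analysed here. The number of arrays limits the precision.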

Additional observations from a re-analysis of the deposited data

How the results depend on the processing

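The differences of HMGCS1, FDPS and FDFT1 kept their direction and stayed short of the threshold under all 10 alternatives, and that of SQLE under 9 of 10. Without 1 pig, the difference was -0.60 to -0.05 for HMGCS1, -1.45 to -0.17 for FDPS, -0.34 to -0.24 for FDFT1 and -1.04 to 0.43 for SQLE, which turned to 0.43 without L replicate 3 (BC3). Adjusted p-values from limma over the alternatives were 0.621 to 1 for HMGCS1, 0.268 to 1 for FDPS, 0.476 to 1 for FDFT1 and 0.776 to 1 for SQLE. The median difference of the 4 genes was -0.62 to -0.22 without 1 pig, with -0.62 without H replicate 6 (BC6). With an unadjusted p under 0.05 alone, 1 of the 4 genes, 1 of the 26 measured sterol genes and 762 probe sets passed, where none passed at the threshold. Without 1 pig, 0 to 286 probe sets passed, 286 of them without L replicate 3 and 160 without L replicate 2, but none of the 4 genes and none of the 26. A lone L pig was then assumed to vary like the H pigs. Apart from the fewer arrays and the looser limit, the cause of these changes was not tested. Leaving out each pig for the counts of list means and for the single sterol genes beyond the 4 was added after seeing the data. Values near the floor of 2.17 hold no signal over background. No paired analysis was made, because each pig belongs to 1 group and the labels name no pairs across H and L. The study avoided sibs within a group, and kinship between H and L pigs was not tested.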

Other observations

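Genes closest to each cholesterol enzyme by pig were also read from the 5708 genes, a search added after the values were seen, and are given as values only. ANAPC16, a subunit of the anaphase-promoting complex, was closest to FDFT1, at a mean absolute difference of deviations of 0.016. It had log2 values of 9.93 in BC4, 9.77 in BC5 and 9.81 in BC6 of the H group, against 10.09 in BC2 and 10.16 in BC3 of the L group, so that its groups did not overlap either. ADGRA3, an adhesion receptor, was closest to HMGCS1 (0.064), with 7.16 in BC4, 6.78 in BC5 and 7.68 in BC6, against 7.53 in BC2 and 7.56 in BC3. ANXA4, a calcium-dependent phospholipid-binding protein, was closest to FDPS (0.079) and was likewise high in BC2 alone, at 11.72 in BC4, 11.67 in BC5 and 11.87 in BC6, against 13.38 in BC2 and 12.02 in BC3. DBT, the transacylase of branched-chain keto acid breakdown, was next to it (0.099), at 6.99 in BC4, 7.11 in BC5 and 7.32 in BC6, against 8.30 in BC2 and 7.36 in BC3. ADAMTS1, a secreted metalloprotease, was closest to SQLE (0.109), with 10.58 in BC4, 10.55 in BC5 and 11.42 in BC6, against 10.32 in BC2 and 11.72 in BC3, and thus high in BC3 and BC6. PROCR, the endothelial receptor of protein C, was the next (0.114). None of these genes passed in limma, and each had an adjusted p of 1.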
